A study of Homo sapiens with 8 samples.

Results

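Extracellular proteolysis was followed through 10 genes: the plasminogen activators *PLAU* and *PLAT*, the urokinase receptor *PLAUR*, the metalloproteinases *MMP1*, *MMP7*, *MMP14* and *ADAM9*, the tissue inhibitors *TIMP1* and *TIMP2*, and the serpin *SERPINB5*. They were chosen by symbol as invasion genes, by a rule that holds no measured value but was set with earlier results of these data known, and were 10 of the 25702 genes listed by NCBI gene number in the count tables. All 10 passed the filter on low counts. RNA was sequenced from SUIT2, a human PDA line of epithelial cells, that carried either a scramble shRNA (shScr, 4 libraries) or 1 of 2 shRNA constructs against *EN1*, a homeodomain transcription factor (shEN1 #1 and shEN1 #2, 2 libraries each). All libraries came from this 1 cell line and every control carried an shRNA vector. The comparison asks how expression changed after *EN1* knockdown. The sources used here give neither time points nor whether replicates were separate cultures, so p-values measure the spread between libraries, which may be technical.

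Urokinase and tissue-type plasminogen activator convert plasminogen to plasmin, a broad serine protease, and the urokinase receptor holds this reaction at the cell surface. Plasmin and metalloproteinases act in one cascade: plasmin can activate secreted pro-MMPs, collagenases cleave fibrillar collagen, membrane-type MMPs act at the leading edge of a cell, and TIMPs block the active site of MMPs. The dense collagen stroma of PDA is a substrate of these enzymes.

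The libraries held 33423590 to 37810604 counts, and the TMM normalization factors were 0.962 to 1.07. Values are counts divided by the library size after TMM normalization, in CPM units. A member had between 807 and 177229 counts in a library, so the counting error was at most 3.52% of a value, and it covers counting error alone. *EN1*, the targeted gene, went against the labels: its level was 4.10, 4.504, 4.94 and 2.51 CPM for shScr replicates 1 to 4, 5.77 and 5.41 CPM for shEN1 #1, and 1.35 and 6.70 CPM for shEN1 #2. Only the library labelled shEN1 #2 replicate 1 lay below every library labelled shScr, so each direction given here is a direction between labels. The library labelled shScr replicate 4 and the one labelled shEN1 #2 replicate 1 stood apart from the others. On the first principal component of log2 CPM (44.6% of the variance) they lay at 59.1 and 62.4, and the other 6 lay between -27.0 and -9.61. Epithelial markers were present in every library (summed level of the 6 markers 11440 to 18550 CPM). Of the fibroblast, endothelial and leukocyte markers, 4 of 7, 2 of 4 and 3 of 6 had 0 counts in all 8 libraries. These included *COL1A2*, *COL3A1*, *CDH5*, *KDR*, *PTPRC* and *CD3E*. Other markers on these lists had counts, with 1.02 to 3.99 CPM for *COL1A1*, 7.75 to 34.6 CPM for *CD68* and 0.374 to 3.23 CPM for *LYZ*.

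None of the 10 invasion genes passed the test for a difference between the labels shEN1 and shScr. In edgeR's quasi-likelihood test, 0 of the 10 had a Benjamini-Hochberg adjusted p below 0.05 (adjusted p = 1 for each), as did 0% of the 14333 genes tested. DESeq2, which called 0.014% of the genes it tested, and limma-voom also called 0 of the 10. The paper, which also used DESeq2, reports a larger set of differentially expressed genes in SUIT2. It does not state its threshold for SUIT2. At an unadjusted p below 0.05 edgeR gave 0 of the 10 members, against 0.307% of all genes tested. The members divided evenly, with 5 higher and 5 lower under the label shEN1. Their median log2 fold change was -0.0052, against -0.0028 over all genes tested. The CPM of the labels overlapped for each of the 10 genes, whereas 0.419% of all genes tested had no overlap. For every member the range of CPM within a label exceeded the difference between the means. The highest library exceeded the lowest by over 2-fold in 7 of the 10 genes, where 35.8% of all genes tested did so, and the members' median SD of log2 CPM within a label was 0.51, against 0.28 over all genes tested.

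**Figure D1:**
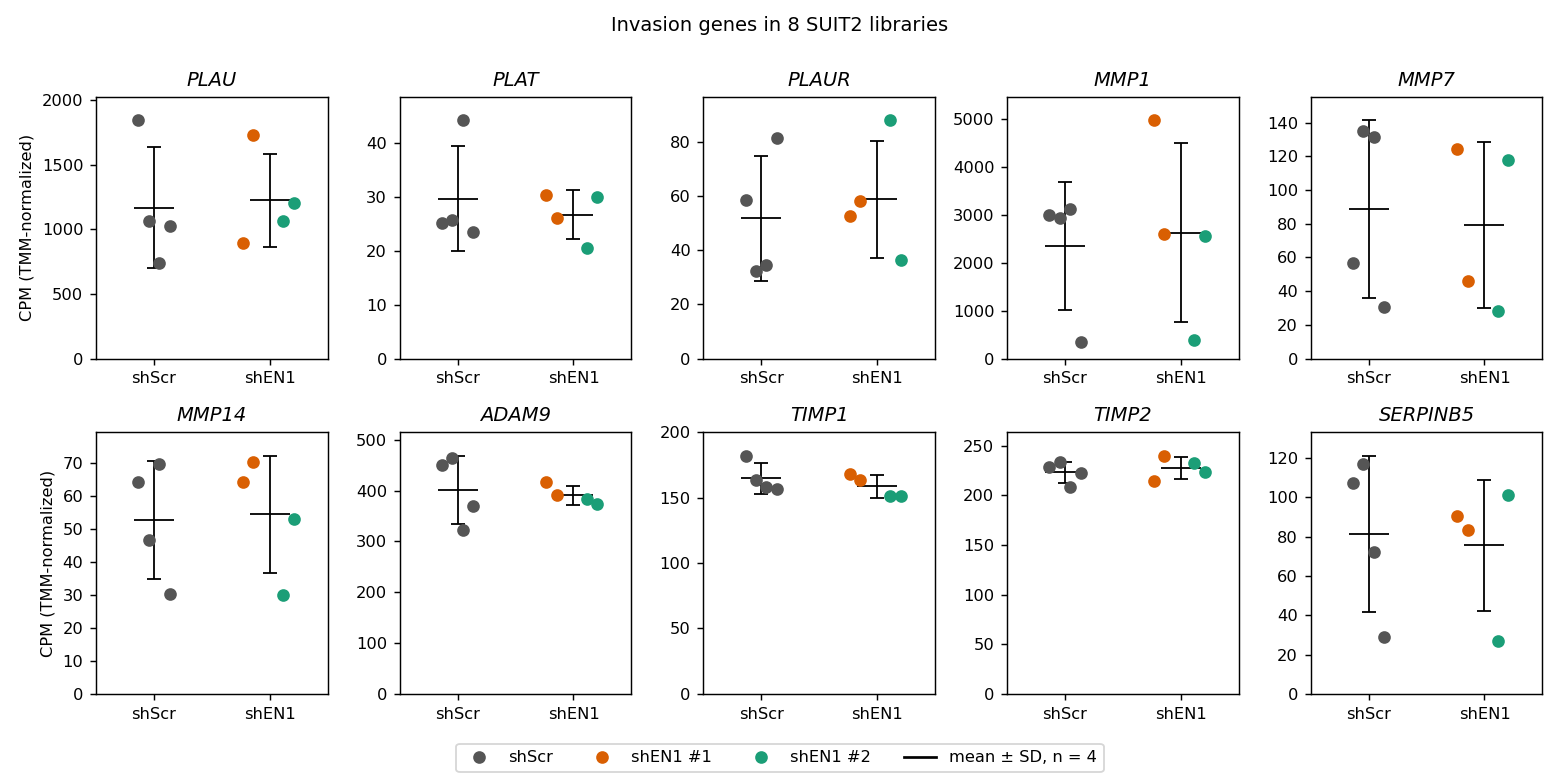
CPM of the 10 invasion genes (vertical axis, linear from 0) in each library, by label. Points are libraries (gray, shScr; orange, shEN1 #1; green, shEN1 #2), and lines give the mean ± SD of 4 libraries. The labels overlap in every panel, and *MMP1* has 1 low library in each label, at 344 and 383 CPM.

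Promoter sequence is shown for 4 members because *MMP7*, *MMP14* and *SERPINB5* were low, and *PLAUR* was high, in the same 2 libraries. The 250 bases upstream of the annotated transcript start are from RefSeq (GRCh38.p14), 5′ to 3′ on the strand of the gene, in which 6 of the 10 genes matched with 7 windows (not *MMP1*, *PLAT*, *ADAM9* or *TIMP2*). Capitals mark a match on either strand to TGANTCA, a relaxed form of the AP-1 motif in which N is any base.
PLAUR, chr19:43670170-43670419, minus strand: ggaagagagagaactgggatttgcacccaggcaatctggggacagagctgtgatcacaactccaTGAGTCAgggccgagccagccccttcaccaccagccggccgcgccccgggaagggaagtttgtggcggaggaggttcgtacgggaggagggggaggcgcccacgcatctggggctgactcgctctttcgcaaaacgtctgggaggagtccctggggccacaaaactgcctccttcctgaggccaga
MMP7, chr11:102530748-102530997, minus strand: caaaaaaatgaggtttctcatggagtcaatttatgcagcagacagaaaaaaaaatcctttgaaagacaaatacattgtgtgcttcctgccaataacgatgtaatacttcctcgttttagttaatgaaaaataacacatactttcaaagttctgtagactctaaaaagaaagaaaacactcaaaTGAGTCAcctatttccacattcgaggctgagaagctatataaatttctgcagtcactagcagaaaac
MMP14, chr14:22836335-22836584, plus strand: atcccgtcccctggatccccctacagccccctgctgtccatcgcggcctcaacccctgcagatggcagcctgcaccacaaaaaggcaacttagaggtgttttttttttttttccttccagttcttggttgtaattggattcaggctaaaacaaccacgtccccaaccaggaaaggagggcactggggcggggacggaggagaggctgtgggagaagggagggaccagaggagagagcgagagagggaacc
SERPINB5, chr18:63476708-63476957, plus strand: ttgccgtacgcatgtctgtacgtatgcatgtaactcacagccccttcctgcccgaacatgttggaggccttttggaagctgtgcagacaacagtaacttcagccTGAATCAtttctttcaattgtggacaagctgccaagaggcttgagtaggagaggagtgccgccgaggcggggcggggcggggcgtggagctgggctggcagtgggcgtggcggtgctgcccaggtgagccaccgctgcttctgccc
The match lay 186 to 180 bases before the start in *PLAUR*, 67 to 61 bases in *MMP7* and 146 to 140 bases in *SERPINB5*, and these letters were not in the *MMP14* window. It read TGAGTCA in *PLAUR* and *MMP7* and TGAATCA in *SERPINB5*. In all, 3 of the 7 member windows held the relaxed pattern, and 6.57% of the 35116 windows of this length did. The TATA box TATAAA was in 1 of the 7 windows, that of *MMP7* at 30 to 25 bases before the start (10.7% of all windows). The GC box GGGCGG was in 4 of the 7 (42.6% of all windows), and TAATTA, the core bound by engrailed homeodomains, in 0 of the 7 (4.35% of all windows). Both strands were searched for each motif. No match overlapped a match of another motif, and a match is a description of the letters in the window.

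*PLAU*, which encodes urokinase (Entrez 5328; GRCh37, chromosome 10, 75668935 to 75677254, plus strand), was the more abundant activator. It had 1843, 1066, 742 and 1023 CPM in shScr replicates 1 to 4, 895 and 1734 CPM in shEN1 #1, and 1067 and 1201 CPM in shEN1 #2. One library of each label was high, shScr replicate 1 and shEN1 #1 replicate 2, and the other 6 were at or below 1201 CPM. The means were 1169 ± 472 CPM for shScr and 1224 ± 362 CPM for shEN1 (SD, n = 4 each), a log2 fold change of 0.067 (standard error 0.29; exact two-sided permutation test over 70 splits, p = 0.743). *PLAU* ranked 69th by mean CPM among the 14333 genes tested. The lncRNA gene *C10orf55* overlaps it on the opposite strand, and the strand setting of the counting is not given in the sources used here.

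*PLAT*, which encodes tissue-type plasminogen activator (Entrez 5327; chromosome 8, 42032236 to 42065227, minus strand), was the lowest of the 10 genes by mean CPM. It had 25.2, 25.7, 44.3 and 23.6 CPM in shScr replicates 1 to 4, 30.5 and 26.1 CPM in shEN1 #1, and 20.5 and 29.99 CPM in shEN1 #2. A single library, labelled shScr replicate 3, lay above the rest. The means were 29.7 ± 9.77 CPM for shScr and 26.8 ± 4.62 CPM for shEN1 (SD, n = 4 each), a log2 fold change of -0.15 (standard error 0.22; exact permutation p = 0.800). Without shScr replicate 3 the log2 fold change was 0.11, so this library decided its sign.

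*PLAUR*, the GPI-anchored receptor that binds urokinase (Entrez 5329; chromosome 19, 44150247 to 44174699, minus strand), had 58.5, 32.4, 34.4 and 81.4 CPM in shScr replicates 1 to 4. It had 52.5 and 58.1 CPM in shEN1 #1, and 87.8 and 36.4 CPM in shEN1 #2. The highest values were those of the 2 libraries that stood apart, 1.39-fold or more above each of the other 6. Within shEN1 #2 the replicates differed 2.41-fold. The means were 51.7 ± 23.1 CPM for shScr and 58.7 ± 21.5 CPM for shEN1 (SD, n = 4 each), a log2 fold change of 0.18 (standard error 0.34; exact permutation p = 0.629).

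The ligand and the receptor therefore did not keep a fixed ratio. Per kilobase of transcript, *PLAU* exceeded *PLAUR* by 18.4-, 19.2-, 12.6- and 7.34-fold in shScr replicates 1 to 4, by 9.95- and 17.4-fold in shEN1 #1, and by 7.09- and 19.3-fold in shEN1 #2. The ratio was lowest in the 2 libraries that stood apart, where the receptor was high and the ligand was within the range of the others. The means of the ratio were 14.4 ± 5.54 for shScr and 13.4 ± 5.84 for shEN1 (SD, n = 4 each), and the labels overlapped. *PLAU* exceeded *PLAT* 21.9- to 95.7-fold per kilobase across the 8 libraries.

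*MMP1*, the interstitial collagenase that cleaves fibrillar collagen (Entrez 4312; chromosome 11, 102660132 to 102668891, minus strand), was the most abundant and the most variable member. It had 2999, 2934, 3123 and 344 CPM in shScr replicates 1 to 4, 4964 and 2591 CPM in shEN1 #1, and 383 and 2555 CPM in shEN1 #2. Each label held 1 library below 400 CPM, and these were the 2 libraries that stood apart. The other 6 exceeded the higher of the 2 by at least 6.67-fold. The means were 2350 ± 1340 CPM for shScr and 2623 ± 1871 CPM for shEN1 (SD, n = 4 each), a log2 fold change of 0.16 (standard error 0.76, 95% interval -1.55 to 1.87; exact permutation p = 0.971). The interval spans folds from 0.341 to 3.66, so differences between labels within that range remain compatible with these values. Its sign depended on single libraries. The log2 fold change was -0.35 without shEN1 #1 replicate 1, -0.20 without shScr replicate 4, 0.52 without shEN1 #2 replicate 1, and 0.155 without both libraries that stood apart. *MMP1* ranked 20th of the 14333 genes by mean CPM, and 99.0% of them had a smaller SD within a label. The processed pseudogene *WTAPP1* lies across it on the opposite strand.

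*MMP7*, or matrilysin, a small secreted MMP made by epithelia (Entrez 4316; chromosome 11, 102391239 to 102401481, minus strand), had 57.0, 135, 132 and 30.5 CPM in shScr replicates 1 to 4. It had 125 and 46.3 CPM in shEN1 #1, and 27.99 and 118 CPM in shEN1 #2. Values fell into a low set of 4 libraries, 2 of each label, at or below 57.0 CPM and a high set of 4, 2 of each label, at or above 118 CPM. The lowest pair was again shScr replicate 4 and shEN1 #2 replicate 1, but shScr replicate 1 and shEN1 #1 replicate 2, which were high in *PLAU*, were also low in *MMP7*. The means were 88.5 ± 52.8 CPM for shScr and 79.2 ± 49.2 CPM for shEN1 (SD, n = 4 each), a log2 fold change of -0.16 (standard error 0.57; exact permutation p = 0.629).

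*MMP14*, the membrane-type MMP that activates pro-MMP2 (Entrez 4323; chromosome 14, 23305769 to 23318250, plus strand), had 64.2, 46.6, 69.7 and 30.1 CPM in shScr replicates 1 to 4, 64.1 and 70.3 CPM in shEN1 #1, and 30 and 52.9 CPM in shEN1 #2. The 2 libraries that stood apart were lowest, at least 1.54-fold below the other 6. The means were 52.7 ± 17.96 CPM for shScr and 54.3 ± 17.7 CPM for shEN1 (SD, n = 4 each), a log2 fold change of 0.044 (standard error 0.31; exact permutation p = 0.83). Its partner substrate gene *MMP2* had 0 counts in all 8 libraries.

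*ADAM9*, a membrane-anchored disintegrin and metalloproteinase that sheds surface proteins (Entrez 8754; chromosome 8, 38854273 to 38962964, plus strand), had the smallest spread of the proteases among the 10 members. It had 449.6, 464, 323 and 369.9 CPM in shScr replicates 1 to 4, 417 and 392 CPM in shEN1 #1, and 384 and 373 CPM in shEN1 #2. Its highest library exceeded its lowest 1.44-fold, and both were labelled shScr. The means were 402 ± 66.7 CPM for shScr and 391 ± 18.7 CPM for shEN1 (SD, n = 4 each), a log2 fold change of -0.038 (standard error 0.13; exact permutation p = 0.83). The protein-coding gene *TM2D2* overlaps it on the opposite strand.

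The composition of the MMP transcripts followed *MMP1*. Of the summed CPM per kilobase of 23 MMP genes, *MMP1* made up 90.0% to 94.6% in 6 libraries, 77.5% in shScr replicate 4 and 80.7% in shEN1 #2 replicate 1. That sum was 225 and 241 CPM per kilobase in these 2 libraries, and 1396 to 2666 in the other 6. *MMP7* made up 2.96% to 12.1% and *MMP14* 0.649% to 3.62%, and the shares of both were highest in the 2 libraries where *MMP1* was low, although their own levels were lowest there. *MMP1* therefore led the MMPs in every library, also where it was lowest.

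*TIMP1*, an inhibitor of most secreted MMPs (Entrez 7076; chromosome X, 47441807 to 47446188, plus strand), had 182, 163, 158 and 156 CPM in shScr replicates 1 to 4, 168 and 164 CPM in shEN1 #1, and 151 and 151 CPM in shEN1 #2. All 8 libraries lay within 1.202-fold of each other. The means were 165 ± 11.8 CPM for shScr and 159 ± 8.66 CPM for shEN1 (SD, n = 4 each), a log2 fold change of -0.055 (standard error 0.099; exact permutation p = 0.514). It lies within *SYN1*, a gene of the opposite strand.

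*TIMP2*, which also takes part in the activation of pro-MMP2 on MMP14 (Entrez 7077; chromosome 17, 76849059 to 76921469, minus strand), had 228, 234, 209 and 222 CPM in shScr replicates 1 to 4, 215 and 239.9 CPM in shEN1 #1, and 232 and 224 CPM in shEN1 #2. Its highest library exceeded its lowest 1.15-fold. The means were 223 ± 10.7 CPM for shScr and 228 ± 10.8 CPM for shEN1 (SD, n = 4 each), a log2 fold change of 0.028 (standard error 0.095; exact permutation p = 0.600). Of all genes tested, 0.767% had a smaller SD within a label than *TIMP2*, and 2.49% had a smaller SD than *TIMP1*. The 95% intervals of the difference between labels were correspondingly narrow, from 0.881- to 1.18-fold for *TIMP2* and from 0.826- to 1.12-fold for *TIMP1*.

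*SERPINB5*, or maspin, an epithelial serpin (Entrez 5268; chromosome 18, 61144191 to 61172318, plus strand), had 107, 117, 72.1 and 29.1 CPM in shScr replicates 1 to 4. It had 90.7 and 83.6 CPM in shEN1 #1, and 26.9 and 101 CPM in shEN1 #2. The 2 libraries that stood apart were lowest, and the other 6 exceeded the higher of them by at least 2.48-fold. The means were 81.3 ± 39.8 CPM for shScr and 75.6 ± 33.2 CPM for shEN1 (SD, n = 4 each), a log2 fold change of -0.11 (standard error 0.48; exact permutation p = 0.800).

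With *TIMP1* and *TIMP2* steady, protease-to-inhibitor ratios moved with the proteases. Per kilobase of transcript, *MMP1* exceeded *TIMP1* by 6.43-, 7.02- and 7.72-fold in shScr replicates 1 to 3, by 11.5- and 6.18-fold in shEN1 #1, and by 6.59-fold in shEN1 #2 replicate 2. In shScr replicate 4 and shEN1 #2 replicate 1 the ratio was 0.858 and 0.987. These ratios use MANE Select transcripts (1971 bases for *MMP1*, 769 for *TIMP1*). All annotated exons hold 2738 and 1446 bases, so whether *MMP1* exceeded *TIMP1* in these 2 libraries depends on the length used. By CPM alone *MMP1* was higher there (344 and 383 against 156 and 151 CPM). The means of the ratio, with MANE Select lengths, were 5.51 ± 3.14 for shScr and 6.32 ± 4.30 for shEN1 (SD, n = 4 each). *MMP14* stayed below *TIMP2* throughout, with a ratio of 0.128 to 0.329, a mean of 0.234 ± 0.0864 for shScr and 0.236 ± 0.0774 for shEN1. The ratio of *TIMP1* to *TIMP2* stayed between 3.10 and 3.78.

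**Figure D2:**
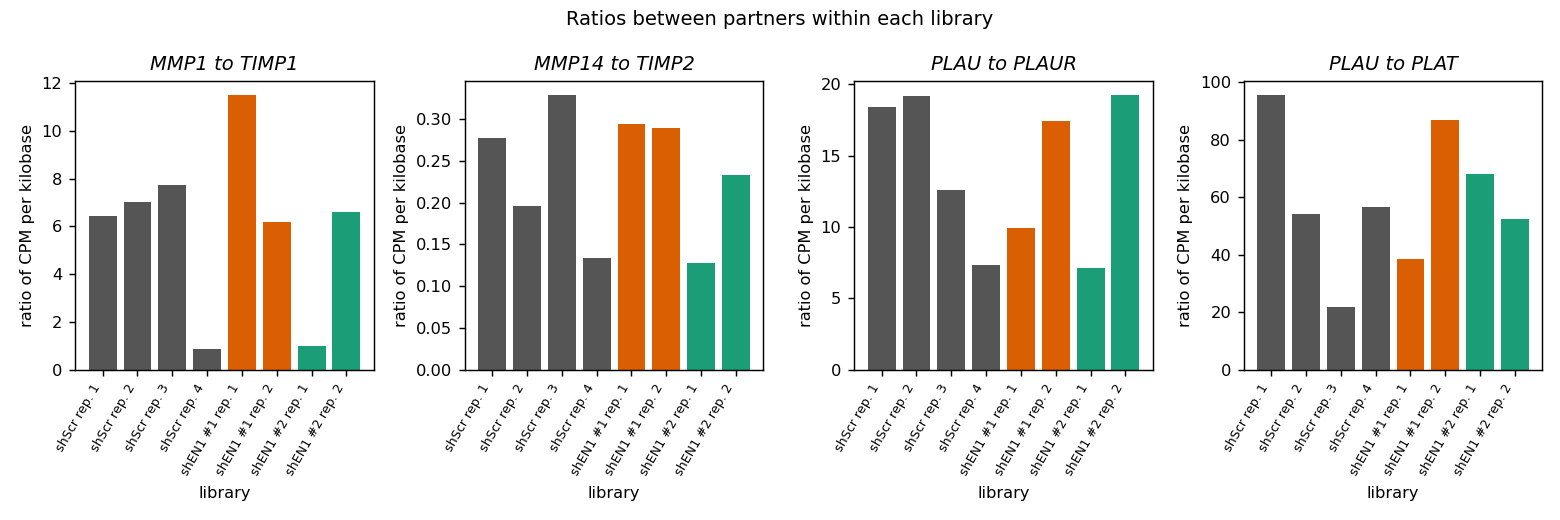
Ratios of CPM per kilobase of MANE Select transcript between partner genes in each library (bars from 0; gray, shScr; orange, shEN1 #1; green, shEN1 #2; 1 bar per library). The *MMP1* to *TIMP1* ratio is 0.858 and 0.987 in the libraries that stood apart and 6.18 to 11.5 in the other 6.

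Compared per kilobase, the levels of the 10 genes spanned over 2 orders of magnitude. *MMP1* was highest (1262 ± 768 CPM per kilobase, SD, n = 8), and exceeded *PLAU* (511 ± 167) in 6 of 8 libraries. *PLAU* exceeded *TIMP1* (210.3 ± 13.2) in 8 of 8, and *TIMP1* exceeded *ADAM9* (96.4 ± 11.1) in 8 of 8. The order of the next genes was not fixed, since *ADAM9* exceeded *MMP7* (75.0 ± 42.5) in 4 of 8 libraries and *MMP7* exceeded *TIMP2* (61.8 ± 2.80) in 4 of 8. *TIMP2* exceeded *PLAUR* (40.4 ± 15.3) in 7 of 8, and *PLAUR* exceeded *SERPINB5* (30.3 ± 13.2) in 5 of 8. *SERPINB5* exceeded *MMP14* (14.5 ± 4.47) and *MMP14* exceeded *PLAT* (9.22 ± 2.37) in 8 of 8. With the length of all annotated exons in place of the MANE Select transcript, *TIMP2* ranked 4th and *ADAM9* 6th, and *SERPINB5* and *PLAUR* changed places.

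**Figure D3:**
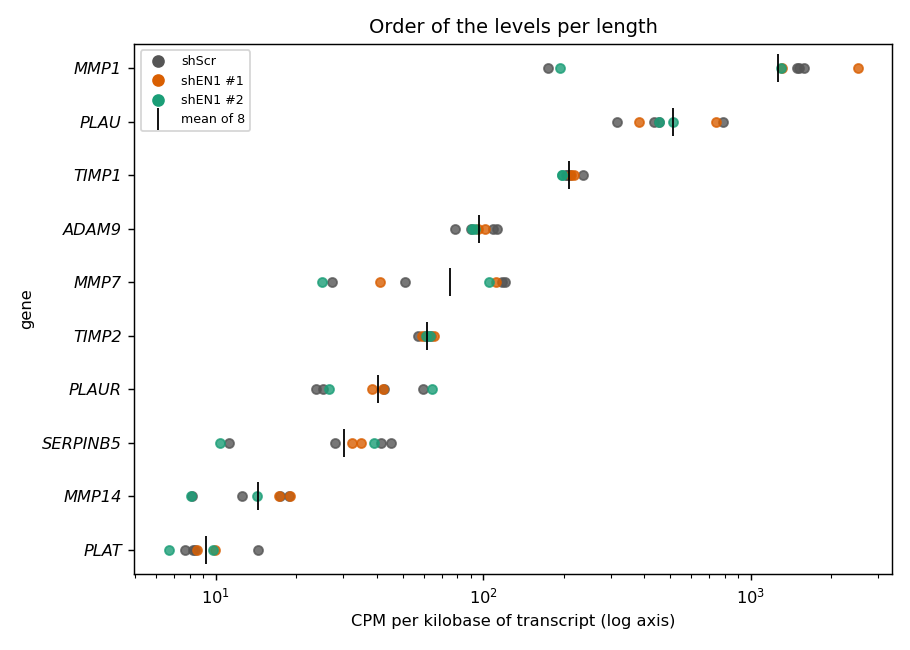
CPM per kilobase of MANE Select transcript for each gene (log axis), ordered by the mean of the 8 libraries (vertical line; points are libraries, colored by label). The points of *TIMP1* and *TIMP2* lie close together, and *MMP1* runs from 174 to 2519.

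Across the members shScr replicate 4 and shEN1 #2 replicate 1 resembled each other. They held the 2 lowest values for 5 of the 10 genes (*PLAT*, *MMP1*, *MMP7*, *MMP14* and *SERPINB5*), where 19.2% of all genes tested had this pattern, and the 2 highest for *PLAUR*, where 18.9% did. *PLAU*, *ADAM9*, *TIMP1* and *TIMP2* had neither pattern. Over the 10 members these 2 libraries differed by 0.11 (root mean square difference of log2 CPM), less than any other pair of the 28. They were also the closest pair over all genes tested (0.399), so this closeness was not particular to the members. For each of the 8 libraries, the nearest library over the members carried the other label: shScr replicate 1 and shEN1 #1 replicate 2 were nearest to each other (0.19), as were shScr replicate 2 and shEN1 #2 replicate 2 (0.19). Over all genes tested the nearest library carried the other label in 7 of 8. *KRT19* had 321 to 400.3 CPM in the 2 libraries that stood apart and 832 to 1648 CPM in the other 6, *KRT7* 192 to 198 and 534 to 1080, *EPCAM* 234 to 241 and 366 to 589, and *CDH1* 103 to 124 and 157 to 256. *KRT8* and *KRT18*, the most abundant epithelial markers, were within the range of the other libraries. The macrophage marker *CD68*, also a lysosomal protein of other cells, had 7.75 to 8.38 CPM in these 2 and 16.7 to 34.6 CPM in the others. The monocyte marker *CD14* went the other way, with 0.279 and 0.908 CPM in these 2 and at most 0.123 CPM in the others. The leukocyte markers summed to 9.67 to 29.2 CPM in the libraries labelled shScr and 8.43 to 35.3 CPM in those labelled shEN1, with 3 of 6 at 0 in all libraries. The fibroblast markers summed to 1.27 to 4.28 and 1.17 to 2.86 CPM (4 of 7 at 0), the endothelial to 0.316 to 0.603 and 0.364 to 0.676 CPM (2 of 4 at 0), and the acinar to 0.373 to 1.13 and 0.305 to 1.41 CPM (3 of 5 at 0). The part of these markers in the members' values was not tested, and in bulk RNA fewer cells of a type and less RNA per cell cannot be told apart.

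**Figure D4:**
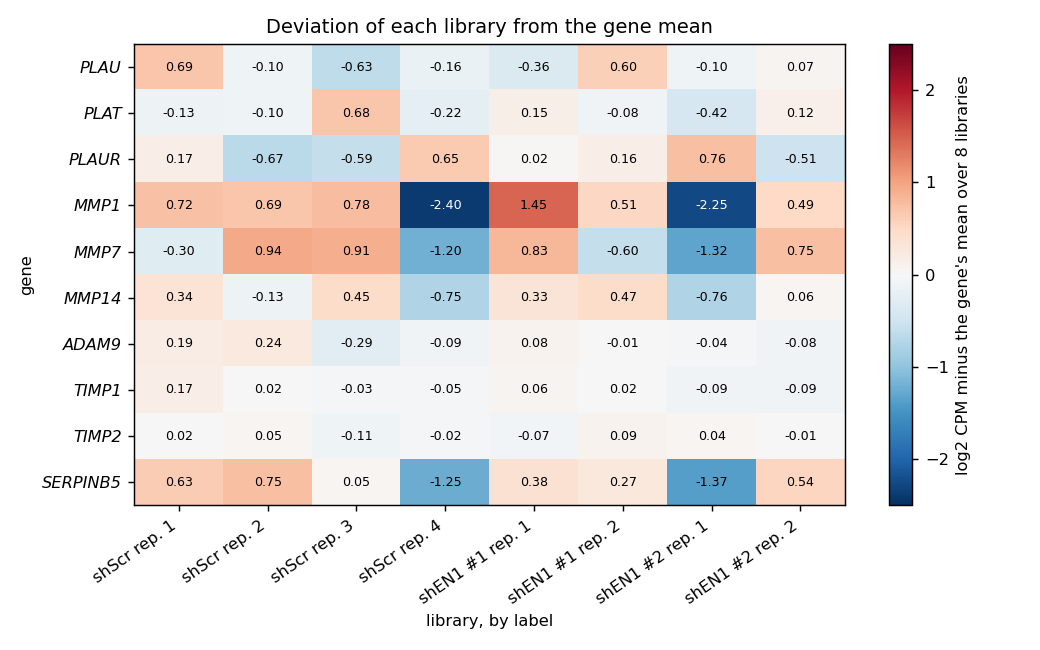
Log2 CPM of each gene in each library minus the mean over 8 libraries (color scale from -2.5 to 2.5; blue, below the mean; red, above). The columns of shScr replicate 4 and shEN1 #2 replicate 1 match each other, with -2.40 and -2.25 for *MMP1*, and the rows of *TIMP1* and *TIMP2* are near 0.

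The genes nearest in pattern were listed for the 3 members with the largest ratio of highest to lowest library, as the root mean square difference of log2 CPM centred on each gene, over 8 libraries of 1 line that share a source. For *MMP1*, whose own deviation was 1.37, they were *KCNJ15* (0.16), *GRIN2A* (0.25) and *SLC37A2* (0.27). For *MMP7* (own deviation 0.91) they were *GCNT3* (0.17), *KLK10* (0.21), a kallikrein-related secreted protease, and *GNG2* (0.25). For *SERPINB5* (own deviation 0.78) they were *MAL2* (0.085), *VPS26A* (0.14) and *SH3YL1* (0.14).

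The constructs were then taken one at a time, both against all shScr libraries, which they share. For shEN1 #1, edgeR called 0 of the 10 members at an adjusted p below 0.05 (0% of all genes) and 0 at an unadjusted p below 0.05 (0.656% of all genes). For shEN1 #2 it called 0 at an adjusted p (0%) and 0 at an unadjusted p (0.300%). Between the constructs it also called 0 (0% of all genes adjusted, 1.07% unadjusted, with 0 members), and DESeq2 and limma-voom called 0 of the 10 in each of these comparisons. The constructs had opposite signs for *MMP1*: its log2 fold change was 0.69 for shEN1 #1 (standard error 0.90) and -0.68 for shEN1 #2 (standard error 0.94). The difference between the constructs was -1.36 (standard error 1.08), and its 95% interval ran from -3.86 to 1.13. *MMP14* had 0.35 and -0.35, a difference of -0.70 (95% interval -1.58 to 0.19). Its shEN1 #2 replicates had 30 and 52.9 CPM, the lower in a library that stood apart. Signs were also opposite for *PLAU* (0.17 and -0.043), *ADAM9* (0.0097 and -0.0875), *TIMP1* (0.01 and -0.123) and *SERPINB5* (0.0997 and -0.347). They were the same for *PLAT*, *PLAUR*, *MMP7* and *TIMP2*. *MMP1* differed 6.67-fold between the replicates of shEN1 #2 themselves.

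**Figure D5:**
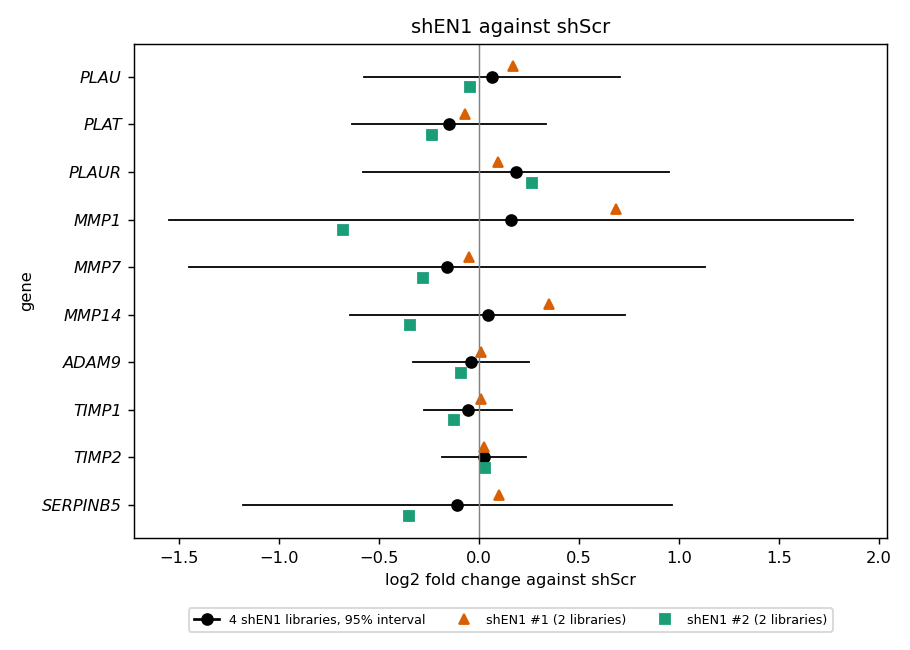
Log2 fold change of each gene against shScr. Circles and lines give all 4 libraries labelled shEN1 with the 95% interval of edgeR's quasi-likelihood fit, and triangles and squares give shEN1 #1 and shEN1 #2 (2 libraries each). All 10 intervals include 0, and they are widest for *MMP1* (-1.55 to 1.87).

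The rest of the pericellular proteolysis system was read from a list of 57 further genes, of which 34 passed the filter and 25 had a mean below 1 CPM. Between the libraries labelled shEN1 and shScr, edgeR called 0 of the 34 at an adjusted p below 0.05 (0% of all genes tested) and 0 at an unadjusted p below 0.05 (0.307%), and DESeq2 and limma-voom called 0. Of the 34, 11 were higher and 23 lower, where 7006 of all genes tested were higher and 7327 lower. Their median log2 fold change was -0.033, against -0.0028 over all genes. The same 2 libraries held the 2 lowest values for 19 of the 34 (19.2% of all genes) and the 2 highest for 4 (18.9%).

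In the plasminogen system, 9 of 13 genes were tested (4 higher, 5 lower). Plasminogen itself, *PLG*, had at most 0.0560 CPM in any library. Levels of its surface receptors differed: *PLGRKT*, a transmembrane plasminogen receptor, had 7.55 to 10.7 CPM, *ENO1*, a glycolytic enzyme that binds plasminogen at the cell surface, had 1834 to 2369 CPM, and *ANXA2*, which binds plasminogen together with S100A10, had 1557 to 2282 CPM. *SERPINB2*, an inhibitor of urokinase, had 0 counts in all libraries. *SERPINE2*, protease nexin 1, had 115, 102, 335 and 35.5 CPM in shScr replicates 1 to 4, 330.4 and 107 CPM in shEN1 #1, and 34.7 and 111 CPM in shEN1 #2. It was thus lowest in the 2 libraries that stood apart and highest in shScr replicate 3 and shEN1 #1 replicate 1. *PLG*, *PLGRKT*, *SERPINB2* and *SERPINE2*, and *MMP2* and *MMP9* among the MMPs, were named after their values were seen.

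Among membrane serine proteases and their inhibitors, 7 of 9 genes were tested (0 higher, 7 lower, with log2 fold changes between -0.26 and -0.0040). Their lowest unadjusted p from edgeR was 0.695. *SPINT2*, an inhibitor of the activator of hepatocyte growth factor, had 331 to 562 CPM. *ST14*, the epithelial protease matriptase, had 454, 532, 540.2 and 193 CPM in shScr replicates 1 to 4, 389 and 514 CPM in shEN1 #1, and 169.7 and 642 CPM in shEN1 #2, with the same 2 libraries lowest. Its log2 fold change between labels was -0.0040 (standard error 0.42; exact permutation p = 1).

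Of the 20 other MMPs, 6 were tested (2 higher, 4 lower) and 15 had a mean below 1 CPM. The membrane-type *MMP15* (24.9 to 78.9 CPM) and *MMP24* (8.97 to 23.01 CPM) were the most abundant, and the gelatinase *MMP9* had at most 0.112 CPM. Of 8 other ADAMs, 5 were tested (3 higher, 2 lower), led by *ADAM15* (121 to 199 CPM) and *ADAM10*, a sheddase of many surface proteins (74.3 to 143 CPM). The 3 other metalloproteinase inhibitors were all tested and lower (0 higher, 3 lower, lowest unadjusted p from edgeR 0.75). Of these, *TIMP3*, which binds to matrix, had 3.95 to 12.3 CPM and *RECK*, which is anchored to the membrane, 2.13 to 11.4 CPM. Of 4 genes of processing and induction, 2 were higher and 2 lower. *BSG*, a surface protein that induces MMPs, had 429 to 561 CPM, and the lysosomal protease *CTSB*, cathepsin B, had 179 to 238 CPM.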

How the data were processed

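RNA-seq of SUIT2 cells was analysed in 8 libraries, grouped by their labels (4 shScr, 2 shEN1 #1, 2 shEN1 #2). The authors deposited raw read counts per gene, whole numbers without normalization, made with HISAT2 and featureCounts. The methods give hg19 for human reads, whereas the submitters' processing notes list a mouse build. The counting annotation and strand setting are not given in the sources used here. Of 25702 gene numbers, 23696 matched a symbol in a RefSeq table (GRCh38.p14), and the others held at most 0.257% of a library's counts. Positions are GENCODE's, lifted to GRCh37.

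From the counts, genes were filtered (filterByExpr, minimum count 10), scaled by TMM and tested with edgeR 4.0.16 (glmQLFit, robust, glmQLFTest) in R 4.3.3, with Benjamini-Hochberg adjustment over all 14333 genes and a threshold of 0.05. The constructs were pooled, and a fit with 3 groups separated them. DESeq2 1.42.0 and limma-voom 3.58.1 were alternatives. Single CPM values were compared by exact permutation (smallest p 0.0286). The tests were also run on simulated counts, drawn independently for each gene and library. Those counts held no pair of libraries that stood apart, so they cannot show how the tests perform with such a pair. The members and lists were chosen with earlier results of these data known. All 10 members were named, of each list of other genes those past the test and the 2 with the highest mean CPM, and the 3 nearest genes of 3 members. Alternatives were the normalization, filter, tool, replicate block and leaving out libraries. The paper's mouse data were not used here.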

Additional observations from a re-analysis of the deposited data

Results flagged for a closer look

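Of 42 groups of 4 values examined, 3 held a library far from the other 3 of its label (a gap to the nearest, relative to the range, past Dixon's critical value), where chance gives about 2.1. *MMP1* had 344 CPM in the library labelled shScr replicate 4 and 2934 to 3123 CPM in the other libraries labelled shScr (gap 0.932 of the range). The library labelled shEN1 #2 replicate 1 had a similar level, 383 CPM. *PLAT* had 44.3 CPM in the library labelled shScr replicate 3 and 23.6 to 25.7 CPM in the other libraries labelled shScr (gap 0.898). The TMM factor was 1.07 in the library labelled shEN1 #2 replicate 1 and 0.974 to 0.981 in the other libraries labelled shEN1 (gap 0.928). The cause of these gaps was not tested.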

How the results depend on the processing

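For the pooled labels, 0 of the 10 members and 0 of the other proteolysis genes passed the adjusted threshold under each alternative run. For each construct, 0 members passed it with DESeq2's size factors, DESeq2, limma-voom, at least 10 counts in every library, the replicate block and each library left out, which can leave a construct with 1 library that is assumed to vary like the others. Upper-quartile scaling, library size only, no filter and leaving out pairs were not run by construct. Other normalizations, filters and tools, and leaving out shScr replicate 4 together with shEN1 #2 replicate 1 (an alternative added after the data were seen), reversed none of the 10 log2 fold changes. Whether replicate numbers pair the samples could not be decided. Same-numbered libraries had correlations of their deviations from the group mean between -0.33 and 0.44. With 2 libraries per construct, the correlations between constructs are equal by construction (0.117). Under the replicate block the values became -0.28 for *PLAU*, 0.072 for *PLAT*, -0.18 for *MMP1*, -0.044 for *MMP14* and -0.022 for *TIMP2*, which reversed, and -0.61 for *SERPINB5*, 0.40 for *PLAUR*, -0.22 for *ADAM9* and -0.12 for *TIMP1*, which did not (edgeR adjusted p = 0.999 to 1), and shScr replicates 3 and 4 have no partner in that fit. Leaving out shScr replicate 3 and shEN1 #1 replicate 1, also added later, gave 0.040 for *PLAT* and -0.18 for *MMP1*, which reversed. It gave -0.161 for *ADAM9*, which did not. Leaving out both pairs leaves 2 libraries a label. This gave 0.14 for *PLAT* and -0.21 for *MMP1*, which reversed, and -0.26 for *ADAM9* and -0.28 for *SERPINB5*, which did not. *MMP1*, *ADAM9* and *SERPINB5* then had an unadjusted p of 0.0473, 0.0198 and 0.032 from edgeR, and an adjusted p of 0.468, 0.407 and 0.439. The cause was not tested.

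Leaving out each library in turn moved the log2 fold change of *PLAU* from -0.15 (without shEN1 #1 replicate 2) to 0.38 (without shScr replicate 1), of *PLAT* from -0.245 (without shScr replicate 4) to 0.11 (without shScr replicate 3), and of *PLAUR* from -0.077 (without shEN1 #2 replicate 1) to 0.49 (without shScr replicate 4). It moved *MMP1* from -0.35 (without shEN1 #1 replicate 1) to 0.52 (without shEN1 #2 replicate 1), *MMP7* from -0.47 to 0.12 (without the same libraries), and *MMP14* from -0.15 (without shScr replicate 4) to 0.245 (without shEN1 #2 replicate 1). It moved *ADAM9* from -0.13 (without shScr replicate 3) to 0.039 (without shScr replicate 2), *TIMP1* from -0.085 (without shEN1 #1 replicate 1) to -0.0038 (without shScr replicate 1), *TIMP2* from -0.0031 (without shScr replicate 3) to 0.054 (without shEN1 #1 replicate 1), and *SERPINB5* from -0.39 (without shScr replicate 4) to 0.17 (without shEN1 #2 replicate 1). The sign changed for 9 of the 10 genes, all but *TIMP1*, and the adjusted p from edgeR was 1 in each of these fits. Counting errors were at most 3.52% for the members, less than the spread between libraries of one label for each of them. They were larger for *EN1*, with 53 to 218 counts, and values below 1 CPM rest on few counts.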
